A study of Mus musculus with 63 samples.

Results

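Metabotropic glutamate receptor transcripts were measured in 2 areas of mouse entorhino-hippocampal tissue cultures, CA3 and the dentate gyrus (DG), and in RNA that co-precipitated with synaptopodin. The members were the 6 count rows with the symbols Grm2, Grm3, Grm4, Grm5, Grm7 and Grm8, out of 55291 gene symbols in each of 63 libraries. All 6 were found in every library, and all 6 passed the filter on low counts in each of the 22 comparisons. They are described as a family by name, with no threshold on a measured value.

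Metabotropic glutamate receptors are G protein-coupled receptors that respond to glutamate more slowly than the ion channel receptors. Grm5 belongs to group I, which couples through Gq to phospholipase C, inositol trisphosphate and calcium release, and which sits largely in the postsynaptic membrane. Grm2 and Grm3 form group II, and Grm4, Grm7 and Grm8 belong to group III; both groups couple through Gi/o to lower adenylyl cyclase activity, and many of these receptors restrain release from presynaptic terminals. In the hippocampus, activation of group II receptors is used as a classical means to depress transmission at the mossy fibers, the axons that granule cells of the DG send to CA3 pyramidal cells.

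Entorhino-hippocampal cultures were prepared from mice of either sex at postnatal days 3 to 5 and kept for at least 18 days in vitro. Wildtype cultures came from C57BL/6J mice (Synpo+/+) and synaptopodin-deficient cultures from B6.129-Synpotm1Mndl/Dllr mice (Synpo-/-). Cultures were either left unlesioned (control) or examined 3 days after an entorhinal cortex lesion (ECL), which cuts the perforant path and removes part of the input to granule cells and CA3 pyramidal cells. Regional libraries each held 1 DG or 1 CA3 area cut from a single culture. There were 2 wildtype CA3 control, 3 wildtype CA3 ECL, 4 wildtype DG control and 7 wildtype DG ECL libraries. Libraries labelled Synpo-/- comprised 6 CA3 control, 6 CA3 ECL, 7 DG control and 4 DG ECL. For the co-immunoprecipitation (coIP), 6 whole cultures per sample were lysed, RNA bound to an anti-synaptopodin antibody was recovered, and RNA from the precleared lysate served as input. This gave 5 wildtype coIP and 5 wildtype input libraries for control cultures, 5 and 5 for ECL cultures, and 2 and 2 from control cultures labelled Synpo-/-. The labels number the samples as biological replicates without saying which animals or cultures they came from, so p-values measure the spread between these samples.

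Regional libraries held 14055930 to 46043990 counts and coIP and input libraries 11601154 to 53682143. Levels are given as CPM, counts scaled to effective library sizes within the regional or the coIP experiment, and log2 fold changes come from fits to the groups compared, so that the latter need not equal the ratio of CPM values. Counts of Synpo, the targeted gene, were not lower in regional and input libraries labelled Synpo-/-. Synpo was called higher in DG control labelled Synpo-/- than in wildtype (log2 fold change 1.17 ± 0.13, adjusted p = 0.000517, edgeR). It was at 0.58 in CA3 control, 0.25 in CA3 ECL and 0.35 in DG ECL, none of them called. In DG control libraries it ran from 40.9 to 69.3 CPM in those labelled Synpo-/- and from 19.1 to 24.4 CPM in wildtype, and in input from 26.4 to 29.9 against 20.3 to 32.2 CPM. In control coIP it was at 25.7 and 30.7 CPM in those labelled Synpo-/- and 27.0 to 42.2 CPM in wildtype. Synpo was higher in coIP than in input in wildtype control (log2 fold change 0.47 ± 0.14, adjusted p = 0.0107, edgeR) and ECL (0.47 ± 0.10, adjusted p = 0.00134) and at -0.03 ± 0.16 in those labelled Synpo-/- (adjusted p = 0.896), and this difference between genotypes was not called (-0.45 ± 0.25, adjusted p = 0.761). Counts summed over a gene do not show which exons were read, so genotype is used by label only. The dissection was checked with 4 granule cell markers, whose summed level was 257 to 585 CPM in 21 of the 22 DG libraries and 26.2 to 101 CPM in the 17 CA3 libraries. The remaining DG library, wildtype DG ECL replicate 5, had 28.2 CPM of granule cell markers, 15.5 CPM of Prox1 (the transcription factor that marks granule cells, 120 to 217 CPM in the other DG libraries) and 631 CPM of 4 CA3 pyramidal cell markers, against 154 to 310 CPM in the other DG libraries. Its label was kept, and values without it are given beside the results it touches. Xist exceeded the summed Y-linked transcripts in 4 of 4 wildtype DG control and 4 of 7 wildtype DG ECL libraries, in 2 of 2 wildtype CA3 control and 1 of 3 wildtype CA3 ECL libraries, and in 4 of 7 control and 2 of 4 ECL DG libraries labelled Synpo-/-.

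On GRCm38, Grm2 (ENSMUSG00000023192.12) lies on the minus strand of chromosome 9 from 106643095 to 106656082, with 4894 exonic bases in the GENCODE M25 models. Grm3 (ENSMUSG00000003974.6) lies on the minus strand of chromosome 5 from 9485541 to 9725170 and had the shortest exonic length, 3049 bases. Grm4 (ENSMUSG00000063239.17) lies on the minus strand of chromosome 17 from 27422387 to 27521403 with 5977 exonic bases. Grm5 (ENSMUSG00000049583.15) lies on the plus strand of chromosome 7 from 87584168 to 88134907 and had the longest, 10247 bases. Grm7 (ENSMUSG00000056755.13) and Grm8 (ENSMUSG00000024211.15) both lie on chromosome 6, Grm7 on the plus strand from 110645581 to 111567230 with 5886 exonic bases and Grm8 on the minus strand from 27275119 to 28135178 with 9898. Counting did not use strand. Grm2 shares 470 exonic bases with the antisense gene Gm28111, so reads from that stretch cannot be told apart, although Gm28111 itself had at most 16 counts in any library. Grm7 shares 130 exonic bases with Gm20387 on the other strand, and Grm8 holds the 96 bases of Mir592.

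Grm2 and Grm8 were the members that were higher in DG than in CA3 in all comparisons of region below, and their promoter windows are printed for that reason. The windows are 300 bases from RefSeq (GRCm38.p6), read 5′ to 3′ on the gene's own strand, with every GGGCGG (the core of a GC box, searched on both strands) in capitals. For Grm8 the most upstream of 3 listed windows is shown.
Grm2, chr9:106656060-106656359, minus strand: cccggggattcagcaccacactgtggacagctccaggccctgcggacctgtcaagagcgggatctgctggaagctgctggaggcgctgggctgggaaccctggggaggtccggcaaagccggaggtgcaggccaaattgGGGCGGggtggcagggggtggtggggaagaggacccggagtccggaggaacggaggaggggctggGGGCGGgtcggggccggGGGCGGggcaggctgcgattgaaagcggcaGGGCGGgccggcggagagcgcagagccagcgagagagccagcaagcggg
Grm8, chr6:28135097-28135396, minus strand: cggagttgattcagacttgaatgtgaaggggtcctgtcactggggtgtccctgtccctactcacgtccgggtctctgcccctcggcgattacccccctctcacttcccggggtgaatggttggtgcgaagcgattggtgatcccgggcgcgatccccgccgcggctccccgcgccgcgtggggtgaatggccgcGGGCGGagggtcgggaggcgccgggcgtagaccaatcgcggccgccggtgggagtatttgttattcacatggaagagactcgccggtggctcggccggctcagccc
The Grm2 window held 4 matches to GGGCGG and 72.0% G or C, and the Grm8 window held 1 match and 67%. The windows of Grm3 and Grm7 held 2 and 1 matches, with 63.7% and 61% G or C. At least 1 GGGCGG was present in 35.7% of the 32851 windows of the same length. TGACG and CAGATG, searched on both strands, were found in none of the 4 windows and in 20.8% and 17.2% of all windows.

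Grm5 was the most abundant member in all 14 groups of libraries, followed by Grm7 and Grm3. To compare genes with each other, CPM was divided by exonic length in kb. In wildtype DG control libraries, Grm5 had 34.3 ± 2.07 CPM per kb (SD, n = 4), Grm7 10.7 ± 1.303, Grm3 4.09 ± 0.967, Grm2 2.49 ± 0.464, Grm8 0.861 ± 0.379 and Grm4 0.379 ± 0.130. The ranges of neighbours in this order did not overlap, apart from those of Grm3 and Grm2. In wildtype CA3 control libraries Grm5 had 36.4 ± 6.36 CPM per kb (SD, n = 2), Grm7 9.69 ± 1.01, Grm3 2.98 ± 0.298, Grm2 0.361 ± 0.0781, Grm4 0.330 ± 0.140 and Grm8 0.173 ± 0.0199, and the ranges of Grm2 and Grm4 overlapped. Grm2 thus ranked close to Grm3 in DG and close to Grm4 in CA3. In whole-culture input of wildtype controls, Grm7 (9.04 ± 1.13 CPM per kb, SD, n = 5) and Grm3 (7.61 ± 1.63) overlapped, as did Grm4 (0.880 ± 0.180) and Grm8 (0.799 ± 0.0430). The regional and the coIP libraries held different tissue and were scaled separately, so levels are not compared across them.

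**Figure D1:**
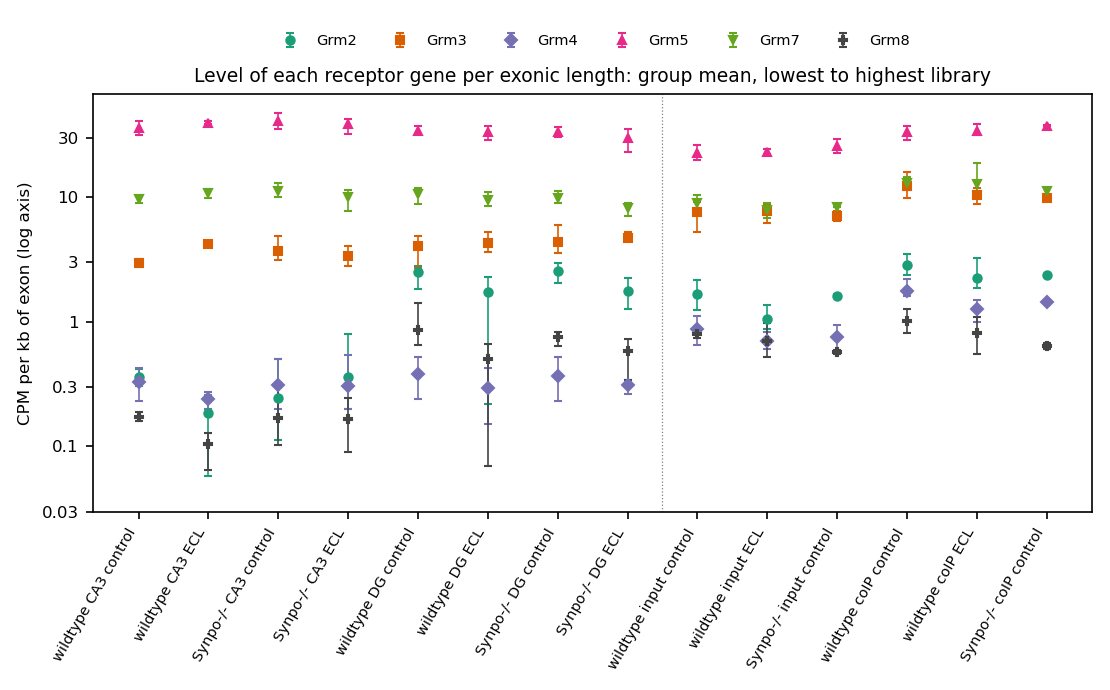
Level of the 6 receptor genes in each of the 14 groups, as CPM per kb of exon on a log axis; symbols are group means and bars run from the lowest to the highest library. Grm5 lies at the top in every group, and Grm2 and Grm8 stand higher in the DG groups than in the CA3 groups, with the long lower bars of wildtype DG ECL reaching down to replicate 5.

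DG and CA3 of the same lesion state and genotype were compared to ask in which area each receptor gene was transcribed more. Grm2, the group II receptor of presynaptic terminals, and Grm8, a presynaptic group III receptor, were higher in DG in all 4 comparisons, whereas Grm4, Grm5 and Grm7 were called in none of them. In wildtype controls, Grm2 had 13.6, 13.8, 12.4 and 8.93 CPM in the 4 DG libraries and 2.04 and 1.496 CPM in the 2 CA3 libraries. Grm8 had 14.1, 6.91, 6.56 and 6.48 CPM in DG and 1.58 and 1.86 CPM in CA3. All DG libraries lay above all CA3 libraries for both genes, as in 13.9% of all genes tested, and for Grm8 replicate 1 of DG stood well above the other 3. The log2 fold change was 2.80 ± 0.28 (SE) for Grm2 (adjusted p = 4.21e-05, edgeR's quasi-likelihood test, Benjamini-Hochberg over all genes tested) and 2.33 ± 0.37 for Grm8 (adjusted p = 0.00172). These were 2 of 6 members, against 2.63% of 25656 genes called higher in DG.

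The libraries labelled Synpo-/- gave the same order. In controls, Grm2 had a lowest value of 10.1, a median of 12.3 and a highest of 14.6 CPM in 7 DG libraries, against 0.551, 0.978 and 2.46 CPM in 6 CA3 libraries. Grm8 had 6.29, 7.67 and 8.24 CPM in DG and 1.02, 1.13 and 3.16 CPM in CA3. The areas did not overlap for either gene, DG lying above CA3 as in 4.22% of all genes tested. The log2 fold changes were 3.46 ± 0.24 for Grm2 (adjusted p = 5.34e-09, edgeR) and 2.26 ± 0.25 for Grm8 (adjusted p = 1.36e-06). Both members called stood against 13.1% of 21408 genes called higher in DG. After ECL, Grm2 had 11.1, 8.38, 9.01 and 6.26 CPM in the 4 DG libraries and 0.984 to 3.89 CPM (median 1.25) in the 6 CA3 libraries. The highest CA3 value belonged to replicate 6, in which Prox1 was at 21.6 CPM, inside the CA3 range of 12.7 to 44.0. Grm8 had 3.39, 5.99, 6.38 and 7.17 CPM in DG and 0.897 to 2.42 CPM (median 1.65) in CA3. The areas were again separate, DG lying above CA3 as in 7.04% of all genes tested. The log2 fold changes were 2.27 ± 0.34 for Grm2 (adjusted p = 0.000328, edgeR) and 1.81 ± 0.30 for Grm8 (adjusted p = 0.000911).

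Grm3, the group II receptor that astrocytes also express, was the third member called in these lesioned cultures. It had 13.8, 13.95, 16.05 and 13.9 CPM in the 4 DG libraries labelled Synpo-/- and 8.50 to 12.4 CPM (median 10.4) in the 6 CA3 libraries. The areas did not overlap, DG lying above CA3 as in 7.04% of all genes tested. The log2 fold change was 0.49 ± 0.12 (adjusted p = 0.0158, edgeR), and the call was lost only without DG replicate 3 among fits that left out 1 library (adjusted p = 0.0720). In total 3 of 6 members were called higher in DG, against 7.37% of 22767 genes. In the same comparison 5 of 6 astrocyte markers were higher in DG, and their summed level was 6330 to 8281 CPM in DG and 4339 to 6077 CPM in CA3; none of the 6 was at 0 in any group, 4 of 6 microglia markers were higher too, and the part of these markers in the Grm3 result was not tested. In the other 3 comparisons of region the log2 fold change of Grm3 was 0.47, 0.09 and 0.34, none of them called.

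In wildtype ECL cultures, replicate 5 of DG decided how firmly the areas could be told apart. Grm2 ran from 7.12 to 11.3 CPM in the other 6 DG libraries and was at 1.06 CPM in replicate 5, and the 3 CA3 libraries had 1.27, 1.15 and 0.286 CPM. Grm8 ran from 4.54 to 6.62 CPM in the other 6 and was at 0.691 CPM in replicate 5, against 1.21, 1.27 and 0.643 CPM in CA3. Replicate 5 therefore lay inside the CA3 range for both genes. With it, the log2 fold changes were 3.35 ± 0.64 for Grm2 (adjusted p = 0.0293, edgeR) and 2.35 ± 0.55 for Grm8 (adjusted p = 0.0434), 2 of 6 members against 1.54% of 24029 genes called higher in DG. Without it they were 3.53 (adjusted p = 6.76e-07) and 2.52 (adjusted p = 2.35e-06), and 4746 of 23965 genes were called in either direction. Leaving out any other single library while keeping replicate 5 ended both calls.

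**Figure D2:**
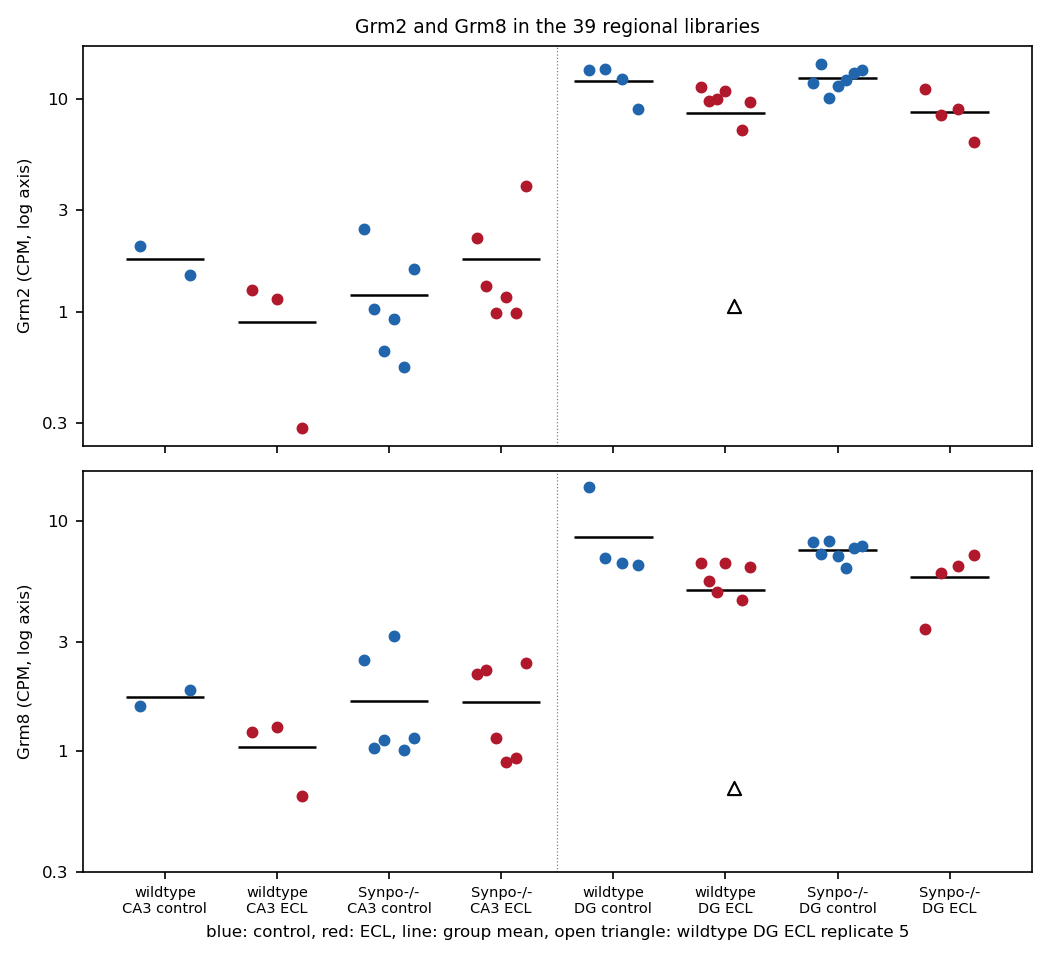
Grm2 (upper panel) and Grm8 (lower panel) in each of the 39 regional libraries, in CPM on a log axis, by group; blue points are control, red points ECL and lines are group means. DG libraries lie above CA3 libraries in both genotypes, except the open triangle, wildtype DG ECL replicate 5, which has 1.06 CPM of Grm2 and 0.691 CPM of Grm8.

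Granule cell markers moved with Grm2 and Grm8: 4 of 4 were higher in DG in each comparison of region, and none of the 4 was at 0 in any group. In bulk tissue, more cells of a type and more RNA per cell cannot be told apart, and the part of cell composition in these differences was not tested. Grm5, the group I receptor of dendritic spines, was called in no comparison of the areas, with log2 fold changes below 0 in all 4. In wildtype controls it had 331, 344, 381 and 352 CPM in DG and 419 and 327 CPM in CA3 (log2 fold change -0.07 ± 0.15, adjusted p = 0.872, edgeR). In controls labelled Synpo-/- it had 315 to 373 CPM (median 338) in DG and 361 to 491 CPM (median 415) in CA3, and the ranges overlapped (-0.19 ± 0.08, adjusted p = 0.0960). In wildtype ECL cultures its DG libraries (295 to 383 CPM) lay below its CA3 libraries (394, 420 and 407 CPM), as in 2.36% of all genes tested. Grm5 was not called there (-0.18 ± 0.11, adjusted p = 0.375, edgeR, or -0.23 without replicate 5, adjusted p = 0.117). The largest difference was in ECL cultures labelled Synpo-/-, with 238, 308, 309 and 363 CPM in DG and 331 to 435 CPM in CA3 (-0.36 ± 0.13, adjusted p = 0.0752), where the ranges overlapped. Grm7, the group III receptor of the active zone, had log2 fold changes of 0.16, -0.12, -0.06 and -0.28 in the 4 comparisons, and Grm4, which was at 0.899 to 3.23 CPM throughout the regional libraries, had 0.21, 0.38, 0.31 and 0.06. Without replicate 5, Grm7 had -0.18 (adjusted p = 0.203) and Grm4 0.31 (adjusted p = 0.562) in wildtype ECL cultures. The median log2 fold change of the 6 members was 0.34 and 0.23 in wildtype control and ECL and 0.33 and 0.27 in those labelled Synpo-/-, beside 0.02, 0.06, 0.05 and 0.03 over all genes tested.

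The signalling partners were read from lists of 10 genes of the Gq arm, 12 of the Gi/o arm, and 11 partners and effectors. All 33 were tested in each comparison of area. In wildtype controls, 3 genes were higher in DG and 5 lower, against 2.63% and 2.75% of all genes tested. Those higher were all of the Gi/o arm, namely the calcium-stimulated adenylyl cyclases Adcy1 (log2 fold change 1.85 ± 0.18, adjusted p = 3.29e-05, edgeR) and Adcy8 (1.751 ± 0.34, adjusted p = 0.00608) and the potassium channel subunit Kcnj9 (1.43 ± 0.23, adjusted p = 0.00173). Those lower were the scaffold Homer3 (-1.47 ± 0.24) and phospholipase Plcb1 (-0.86 ± 0.14) of the Gq arm, Rgs4 (-0.66 ± 0.18) and Gnai1 (-0.50 ± 0.14) of the Gi/o arm, and the activity-regulated gene Arc (-2.21 ± 0.29). In wildtype ECL cultures Adcy1 (1.71), Kcnj9 (1.28) and Adcy8 (1.41) were higher in DG and Plcb1 (-0.74) was lower, against 1.54% and 0.508% of all genes. These 4 calls were lost in every fit that left out 1 library other than DG replicate 5. Without replicate 5 they were kept (1.80, 1.39, 1.52 and -0.93, edgeR adjusted p of 4.25e-08, 2.90e-07, 0.000424 and 1.39e-06). In that fit 4 pathway genes were higher in DG and 12 lower, against 4746 of 23965 genes called in either direction.

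In controls labelled Synpo-/-, 7 of 33 pathway genes were higher in DG and 11 lower by edgeR, against 13.1% and 12.5% of all genes. The Gq arm had 3 higher and 6 lower, among them Homer3 (-1.73), Plcb4 (0.85) and Plcb1 (-0.71), and the Gi/o arm had 4 higher and 3 lower, among them Kcnj9 (1.70), Adcy1 (2.04) and Adcy8 (1.72). Map1b (-0.41) and Arc (-0.95) were lower. After ECL, 6 were higher and 9 lower, against 7.37% and 6.24%. Of the Gq arm, Plcb4 (0.55) was higher and Plcb1 (-0.95), Homer3 (-1.27), Gnaq (-0.57) and Homer2 (-0.47) were lower. Of the Gi/o arm, 4 were higher and 4 lower, with Adcy1 (1.55), Kcnj9 (1.27) and Rgs4 (-1.11) leading. The tamalin gene Grasp (0.62) was higher, and Map1b (-0.47) was lower in DG.

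ECL was compared with control in each area and genotype to ask whether receptor transcripts changed after the loss of entorhinal input. In DG labelled Synpo-/-, Grm2 and Grm7 fell. Grm2 had 10.1 to 14.6 CPM (median 12.3) in the 7 control libraries and 11.1, 8.38, 9.01 and 6.26 CPM in the 4 ECL libraries, and 3 of the 4 lay below all controls. The log2 fold change was -0.57 ± 0.15 (adjusted p = 0.0209, edgeR). Grm7 had 53.1 to 65.7 CPM (median 57.8) in controls and 46.1, 41.4, 51.7 and 53.5 CPM after ECL, with the highest ECL library above the lowest control (-0.32 ± 0.09, adjusted p = 0.0434). These 2 of 6 members stood against 3.36% of 23310 genes called lower after ECL. Both calls were lost when the replicate number entered as a block (adjusted p = 0.118 for Grm2 and 0.146 for Grm7). These numbers do not pair control with ECL libraries, so that fit cannot decide how firm the calls are. Leaving out 1 library at a time kept Grm2 in 8 of 11 fits, all but those without ECL replicate 2, 3 or 4 (adjusted p = 0.0560, 0.0599 and 0.0904), and Grm7 in 2 of 11. Astrocyte and microglia markers rose in the same libraries, 5 of 6 in each list; summed astrocyte markers were 4192 to 4957 CPM in control and 6330 to 8281 CPM after ECL, and microglia markers 369.7 to 668.4 and 823.5 to 990.2 CPM. Granule cell markers did not fall, with 0 of 4 called by edgeR and 257 to 431 CPM in control against 326 to 585 CPM after ECL. The part of these shifts in the Grm2 and Grm7 results was not tested.

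Wildtype DG showed no call among the 6 members (0 by edgeR and 0 by DESeq2), while edgeR called 12.2% of 23720 genes. At an unadjusted p under 0.05 there were 0 members and 7823 genes. Grm2 had 13.6, 13.8, 12.4 and 8.93 CPM in controls and 1.06 to 11.3 CPM (median 9.80) after ECL, with a log2 fold change of -0.54 ± 0.38 (adjusted p = 0.327, edgeR), or -0.36 without replicate 5 (adjusted p = 0.118). Grm8 had -0.80 ± 0.39 (adjusted p = 0.170), or -0.61 without replicate 5 (adjusted p = 0.0588). Grm7 had 66.5, 64.6, 69.4 and 52.0 CPM in controls and 50.1 to 65.2 CPM (median 56.1) after ECL (-0.20 ± 0.10, adjusted p = 0.185, or -0.25 without replicate 5, adjusted p = 0.0812), and was called with the length trend removed (-0.33, adjusted p = 0.0368). The values overlapped between the groups for all 6 members, and 4 of 5 sex-linked genes were called higher after ECL in the same libraries. Of the surrounding pathway, Arc (log2 fold change 2.8996 ± 0.48, adjusted p = 0.00200, edgeR), Gnai2 (0.48) and Cyth2 (0.47) rose and Adcy8 fell by 1.17, against 7.86% of all genes called higher and 4.31% lower. Without replicate 5 all 4 stayed called, at 2.52, 0.46, 0.44 and -1.05 (edgeR adjusted p of 0.000311, 0.00984, 0.0156 and 0.00536). In that fit 4 pathway genes rose and 2 fell, against 3250 of 23605 genes called in either direction. Leaving out 1 control ended the call of Adcy8 (without replicate 1 or 2, adjusted p = 0.0583 and 0.0556), of Gnai2 (without 3 or 4, adjusted p = 0.0729 and 0.0634) and of Cyth2 (without 2 or 4, adjusted p = 0.0569 and 0.0813). In the same libraries 6 of 6 microglia and 4 of 6 astrocyte markers rose, with summed levels of 277 to 401 CPM in control and 741 to 884 CPM after ECL for microglia and 3945 to 4490 and 6102 to 7662 CPM for astrocytes, none at 0; their part was not tested.

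In CA3, neither genotype had a member called. In wildtype the 2 control and 3 ECL libraries gave 0 of 6 by edgeR and 0 by DESeq2, against 1.78% of 22340 genes called by edgeR. Grm3 alone had an unadjusted p under 0.05, as did 5348 of the 22340 genes. Grm3 had 9.73 and 8.44 CPM in control and 13.5, 12.4 and 12.8 CPM after ECL, which did not overlap (log2 fold change 0.40 ± 0.17, adjusted p = 0.185, edgeR). Grm2 (2.04 and 1.496 CPM in control, 1.27, 1.15 and 0.286 CPM after ECL) and Grm8 (1.58 and 1.86 against 1.21, 1.27 and 0.643 CPM) did not overlap either, with log2 fold changes of -1.09 ± 0.59 and -0.83 ± 0.45 (adjusted p = 0.291 and 0.292). These 3 of 6 members stood against 46.9% of all genes whose groups did not overlap, and the share called rested on single libraries, with 0 to 669 genes called when 1 was left out (0 without ECL replicate 1 and 669 without control replicate 2). Granule cell markers had a median log2 fold change of -0.89 there (C1ql2 -1.88 and Dsp -1.62), with 0 of 4 called by edgeR. Their summed level was 38.8 to 41.9 CPM in control and 30.9 to 48.7 CPM after ECL, and none was at 0. Summed astrocyte markers were 4183 to 4950 CPM in control and 5431 to 6221 CPM after ECL. Summed microglia markers were 304 to 483 CPM in control and 571 to 723 CPM after ECL. The part of these markers in the receptor results was not tested. None of the 33 pathway genes was called there by edgeR. At an unadjusted p under 0.05 there were 8, beside 5348 of all 22340 genes, and DESeq2 called 4, beside 1387 of 19112 genes. In CA3 labelled Synpo-/-, 0 of 6 members were called by edgeR and 0 by DESeq2, against 0.077% of 20772 genes called by edgeR. At an unadjusted p under 0.05 there were 0 members and 1510 genes. Arc rose there (2.02 ± 0.31, adjusted p = 0.0219, edgeR). Grm2, at 0.551 to 2.46 CPM in control and 0.984 to 3.89 CPM after ECL, had a log2 fold change of 0.59 ± 0.42 (adjusted p = 0.828).

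Whole-culture input showed a fall in Grm2. The 5 control inputs had 7.90, 8.02, 6.05, 8.66 and 10.7 CPM and the 5 ECL inputs 6.75, 4.27, 4.84, 5.57 and 4.42 CPM. The groups overlapped only through the lowest control and the highest ECL library, and the log2 fold change was -0.68 ± 0.17 (adjusted p = 0.0332, edgeR). Grm2 was the 1 member called, against 3.16% of 17951 genes called lower after ECL. The call was lost without ECL replicate 2, 3 or 5 or control replicate 2, 4 or 5 (adjusted p = 0.0600 to 0.0921). With the replicate number as a block it was also lost (adjusted p = 0.0596), although these numbers do not pair control with ECL inputs. Summed microglia markers were 427 to 764 CPM in control and 742 to 1069 CPM after ECL, with 3 of 6 markers higher, and granule cell markers 75.2 to 97.6 and 66.3 to 89.8 CPM, with 1 of 4 lower. Summed astrocyte markers were 14252 to 21899 CPM in control and 20095 to 30239 CPM after ECL. Neuron markers were at 7010 to 8731 and 6120 to 7624 CPM, and interneuron markers at 1066 to 2178 and 853 to 1150 CPM. The part of these markers in the Grm2 result was not tested. Kcnj9 was the only pathway gene called (-0.29 ± 0.08, adjusted p = 0.0436). In coIP libraries, 0 of 6 members were called after ECL by edgeR and 0 by DESeq2, against 0.314% of 18449 genes. Grm4 alone had an unadjusted p under 0.05 there, as did 2252 of the 18449 genes. It had 13.1, 9.67, 10.2, 10.0 and 10.1 CPM in control and 8.12, 7.85, 6.00, 9.03 and 7.28 CPM after ECL. The values did not overlap, as in 2.53% of all genes (-0.46 ± 0.16, adjusted p = 0.254, edgeR).

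Over the 6 members the median log2 fold change of ECL against control was -0.27 in wildtype CA3, -0.28 in wildtype DG, -0.06 in CA3 and -0.29 in DG labelled Synpo-/-, -0.20 in input and -0.27 in coIP, beside -0.01, -0.0030, 0.0011, 0.01, -0.0027 and 0.0080 over all genes tested. In wildtype CA3 the members were split, with 3 above 0 and values from -1.09 to 0.40. Members above 0 numbered 1, 1, 1, 2 and 1 in the other comparisons, in the same order. In DG labelled Synpo-/-, 2 of 33 pathway genes rose and 5 fell, against 5.17% and 3.36% of all genes. Arc (3.28 ± 0.29, adjusted p = 5.95e-06, edgeR) and Grasp (0.57) rose. The inositol trisphosphate receptor Itpr1 (-0.55), Homer2 (-0.41), the potassium channel subunits Kcnj3 (-0.57) and Kcnj9 (-0.42), and Adcy1 (-0.58) fell.

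**Figure D3:**
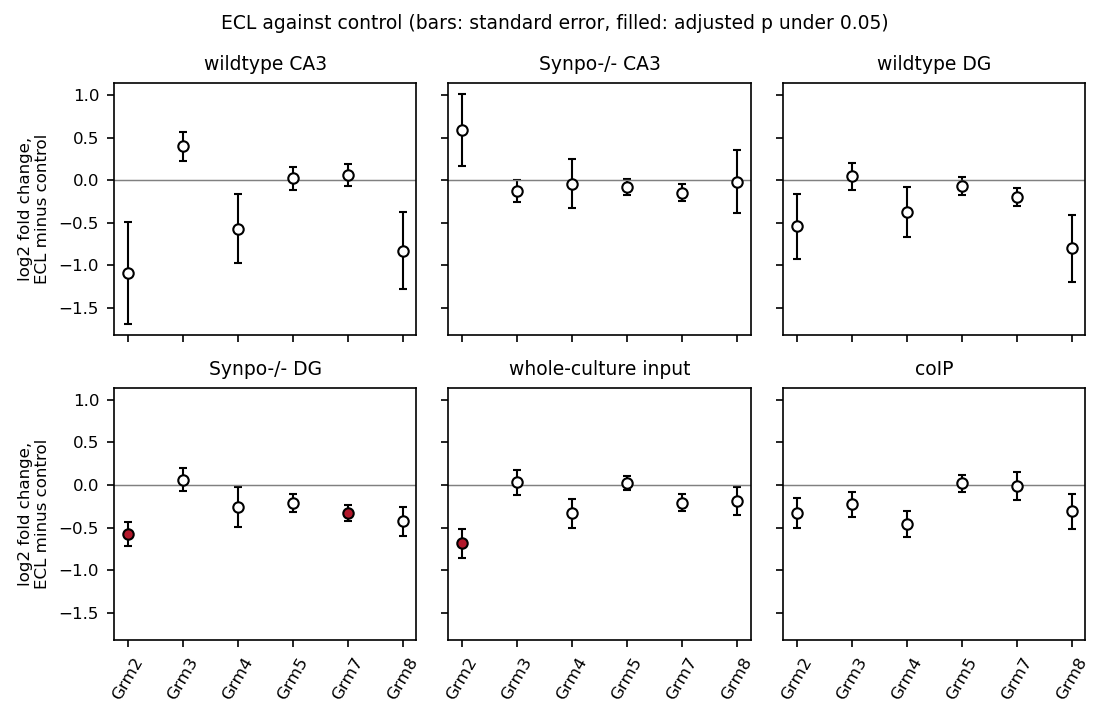
Log2 fold change of ECL against control for the 6 receptor genes in 6 comparisons, with bars of 1 standard error; filled points had an adjusted p under 0.05. Grm2 and Grm7 in DG labelled Synpo-/- and Grm2 in whole-culture input are the filled points, all below 0, and the widest bar is that of Grm2 in wildtype CA3.

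Genotype was compared within each area and lesion state to ask whether receptor transcripts differed without synaptopodin, with genotype taken from the label. No member was called by edgeR or DESeq2 in any of the 4 comparisons. By edgeR the genes called made up 0.00413% of 24203 genes in CA3 control, 0.00891% of 22447 in CA3 ECL, 0.0166% of 24143 in DG control and 0.0166% of 24100 in DG ECL. Genes with an unadjusted p under 0.05 numbered 3959, 1383, 3746 and 859 in the same order. DESeq2 called 758, 20, 231 and 12 genes, and edgeR called 117 in CA3 control without Synpo-/- replicate 6 and 606 in DG control without Synpo-/- replicate 4. Only Grm7 in DG ECL had an unadjusted p under 0.05 (46.1, 41.4, 51.7 and 53.5 CPM in those labelled Synpo-/- against 50.1 to 65.2 CPM in wildtype, log2 fold change -0.24 ± 0.10, edgeR adjusted p = 1.00). Wildtype replicate 5 held the highest of these values, and without it the log2 fold change was -0.20 (adjusted p = 1.00). In DG controls, log2 fold changes ran from -0.21 for Grm8 to 0.08 for Grm3, with Grm5 at -0.07 ± 0.09 and Grm2 at 0.01 ± 0.13. The estimates were wider in CA3, where Grm2 had -0.61 ± 0.50 in control and 1.06 ± 0.55 after ECL.

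Whether the lesion effect differed between genotypes was tested as an interaction. In CA3, 0 of 6 members and 0% of 26821 genes were called by edgeR, with 4589 genes at an unadjusted p under 0.05 and 299 called by DESeq2, which called 0 members. Grm2 (1.63 ± 0.79, adjusted p = 0.292) and Grm3 (-0.56 ± 0.24, adjusted p = 0.241) had an unadjusted p under 0.05 there. In DG, 0 of 6 members and 0.00381% of 26245 genes were called by edgeR, and DESeq2 called 0 members. No member had an unadjusted p under 0.05, beside 2730 of all genes tested. The Grm2 interaction was -0.06 ± 0.44 (adjusted p = 0.956), -0.27 without replicate 5 (adjusted p = 0.648) and 0.07 with the length trend removed (adjusted p = 0.964), so the fall of Grm2 called in DG labelled Synpo-/- and not in wildtype DG was not shown to differ between them. The difference between areas did not differ detectably by genotype in control cultures either, with 0 of 6 members and 0% of 28235 genes called by edgeR, 0 members and 0 genes by DESeq2, 1237 genes at an unadjusted p under 0.05 and no member among them.

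CoIP was compared with input to ask which receptor transcripts were recovered with synaptopodin above their share in the lysate. In wildtype control cultures all 6 members were called higher in coIP, against 29.6% of 18222 genes called higher. The fits given here and for the other cultures did not pair coIP with input. In wildtype control, all 6 stayed called with a replicate block, which pairs the fractions. For 5 of the 6 all coIP libraries lay above all inputs, as in 19.3% of all genes tested. Grm4, a presynaptic group III receptor, had the largest log2 fold change of the 6 in this comparison. Its values were 13.1, 9.67, 10.2, 10.0 and 10.1 CPM in coIP and 5.14, 6.71, 3.87, 4.76 and 5.82 CPM in input, which did not overlap (1.03 ± 0.16, adjusted p = 8.35e-05, edgeR). Grm2 had 12.5, 11.7, 12.9, 15.8 and 17.01 CPM in coIP and 7.90, 8.02, 6.05, 8.66 and 10.7 CPM in input, again without overlap (0.78 ± 0.16, adjusted p = 0.000834). Grm3 had 30.5, 37.3, 30.1, 48.8 and 41.8 CPM against 16.004, 27.1, 20.5, 28.0 and 24.4 CPM (0.72 ± 0.16, adjusted p = 0.00180). Its lowest coIP library lay just above its highest input.

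Grm5, the postsynaptic group I receptor, had 295, 380, 376, 330 and 346 CPM in coIP and 203, 209, 268, 245 and 234 CPM in input, which did not overlap (0.59 ± 0.10, adjusted p = 0.000150, edgeR). Grm7 had 70.1, 68.0, 85.8, 84.8 and 74.7 CPM against 43.6, 51.4, 52.8, 57.1 and 61.2 CPM (0.55 ± 0.11, adjusted p = 0.000581). Grm8 had the smallest difference, with 12.5, 11.8, 9.81, 8.15 and 8.05 CPM in coIP against 8.53, 7.94, 7.37, 7.98 and 7.70 CPM in input. The Grm8 ranges overlapped (0.37 ± 0.15, adjusted p = 0.0463), and its call was lost with DESeq2 (adjusted p = 0.0879), with 5 other settings and in 8 of 10 fits that left out 1 library. With the replicate block it was kept (0.35 ± 0.13, adjusted p = 0.0285, edgeR).

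In wildtype ECL cultures, 5 of 6 members were called higher in coIP, against 30.5% of 18229 genes. For 4 of the 6 all coIP libraries lay above all inputs, as in 21.0% of all genes tested. Grm2 had 9.35, 10.0, 9.17, 15.8 and 10.8 CPM in coIP and 6.75, 4.27, 4.84, 5.57 and 4.42 CPM in input (log2 fold change 1.11 ± 0.19, adjusted p = 0.000208, edgeR). Grm4 (0.88 ± 0.17, adjusted p = 0.000424), Grm7 (0.72 ± 0.16, adjusted p = 0.00127) and Grm5 (0.57 ± 0.09, adjusted p = 0.000114) were also separate between the fractions. Grm3 had 36.1, 27.0, 36.1, 26.7 and 33.8 CPM in coIP against 26.8, 24.3, 25.2, 18.9 and 24.2 CPM in input, with a narrow overlap (0.44 ± 0.12, adjusted p = 0.00712). Grm8 had 6.64, 8.99, 10.9, 8.10 and 5.47 CPM against 9.62, 5.22, 6.09, 8.41 and 5.55 CPM, and was not called (0.22 ± 0.22, adjusted p = 0.395). The coIP effect did not differ detectably between ECL and control cultures, with 0 of 6 members and 0% of 19581 genes called by edgeR, 0 members and 0 genes by DESeq2, 434 genes at an unadjusted p under 0.05 and no member among them. These fits did not pair coIP with input. With a replicate block, edgeR called 0 genes and 752 had an unadjusted p under 0.05.

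The same precipitation from cultures labelled Synpo-/- was the study's control for recovery that does not depend on synaptopodin. Here 4 of 6 members were called higher in coIP, against 15% of 20892 genes called higher. Grm4 had 8.40 and 8.98 CPM in the 2 coIP libraries and 3.41 and 5.65 CPM in the 2 inputs (log2 fold change 0.90 ± 0.26, adjusted p = 0.0193, edgeR). Grm5 had 380 and 390 CPM against 300 and 231 CPM (0.50 ± 0.15, adjusted p = 0.0220). Grm3 had 31.6 and 28.7 CPM against 19.5 and 23.5 CPM (0.46 ± 0.16, adjusted p = 0.0462), and Grm7 had 62.3 and 70.3 CPM against 49.7 and 49.3 CPM (0.39 ± 0.14, adjusted p = 0.0471). Grm2, with 11.7 and 11.5 CPM against 7.54 and 8.14 CPM, lay just beyond the threshold (0.53 ± 0.19, adjusted p = 0.0516) and was called with the length trend removed (adjusted p = 0.0491). The labels of these 4 libraries carry a preparation number and a biological replicate number, which cross between coIP and input. With the preparation number as a block Grm2 was called (adjusted p = 0.0371), and with the biological replicate number, a block chosen after seeing the data, it was not (adjusted p = 0.0800), nor were Grm3 (adjusted p = 0.0636) and Grm7 (adjusted p = 0.0587). Grm8 had 5.95 and 6.66 CPM against 5.46 and 5.93 CPM (0.11 ± 0.22, adjusted p = 0.736). For each of the 6 members both coIP libraries exceeded both inputs, for Grm8 by a narrow margin, as was the case in 36.3% of all genes tested. With 2 libraries per fraction the calls were sensitive to single libraries, and without input replicate 1 or replicate 2 only Grm5 (adjusted p = 0.0125) or only Grm4 (adjusted p = 0.00399) was called.

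**Figure D4:**
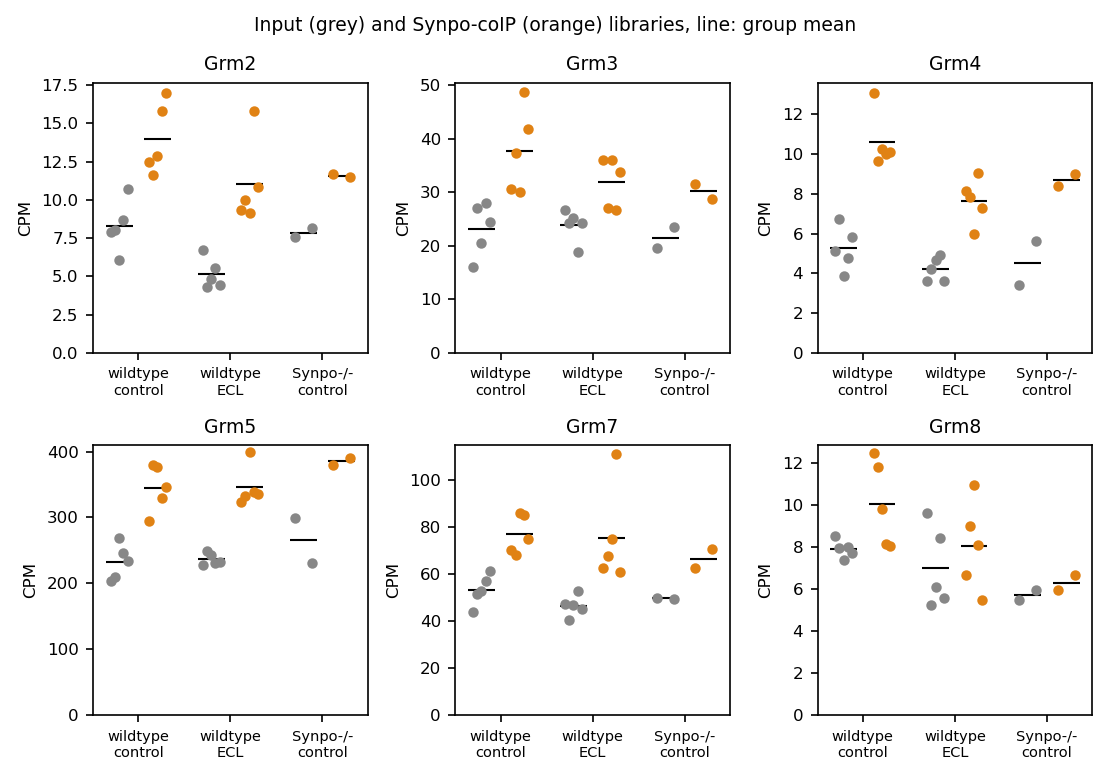
Input (grey) and Synpo-coIP (orange) libraries for each of the 6 receptor genes in wildtype control, wildtype ECL and control cultures labelled Synpo-/-, in CPM from 0, with lines at group means. Orange lies above grey for Grm2, Grm4, Grm5 and Grm7 in all 3 sets of cultures, and for Grm8 the points mix in both wildtype sets.

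The coIP effect in cultures labelled Synpo-/- was tested against that in wildtype controls as an interaction. It was negative for all 6 members, from -0.21 for Grm3 to -0.04 for Grm5, and called for none, with 0% of 20621 genes called by edgeR, 1511 genes at an unadjusted p under 0.05 and no member among them; DESeq2 called 64 genes and 0 members. With standard errors of 0.19 to 0.31 and 2 libraries per fraction labelled Synpo-/-, differences of this size were not detectable in this fit. It did not pair coIP with input. With a replicate block, edgeR called 61 genes and 2644 had an unadjusted p under 0.05. CoIP and input libraries labelled Synpo-/- held 42886994 to 53682143 counts, against 12888443 to 26730691 in wildtype controls. Xist was at 152 to 167 CPM in input and 530 to 541 CPM in coIP labelled Synpo-/-. In wildtype controls it ran from 0.091 to 136 CPM (median 1.11) and from 0.782 to 447 CPM (median 1.38). The part of these differences in the interaction and in the correction that follows was not tested. Following the study's correction for non-specific binding, the fold change in cultures labelled Synpo-/- was subtracted on the log2 scale from that in wildtype, and genes enriched in wildtype that retained more than 30% enrichment were kept, here with edgeR's fold changes and calls where the study used those of DESeq2. This kept 1357 of 5389 enriched genes, 25.2%, and 0 of the 6 members. The remaining fold was 1.201 for Grm3, 1.19 for Grm8, 1.19 for Grm2, 1.11 for Grm7, 1.09 for Grm4 and 1.06 for Grm5, all below the limit of 1.3. With wildtype ECL samples in place of controls Grm2 alone was kept, and with any positive remainder all 6 were.

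Exonic length and GC content moved with the coIP effect across genes, so the 3 comparisons were refitted with those trends taken out. With the length trend removed, the log2 fold change of Grm5, the longest member, dropped to 0.23 in wildtype control (adjusted p = 0.0476, edgeR) and to 0.20 in wildtype ECL (adjusted p = 0.0593). In cultures labelled Synpo-/- it dropped to 0.26 and was no longer called (adjusted p = 0.195, edgeR), nor was Grm7 (0.34, adjusted p = 0.0792). The log2 fold change of Grm8 dropped to 0.02, -0.14 and -0.12 in the 3 comparisons. Grm3, the shortest member, rose to 0.94, 0.73 and 0.60. With the GC trend removed as well, Grm5 stood at 0.45 (adjusted p = 0.00126), 0.43 (adjusted p = 0.000373) and 0.37 (adjusted p = 0.0488) and was called in all 3 comparisons, whereas Grm4 dropped to 0.42 (adjusted p = 0.0524), 0.20 (adjusted p = 0.308) and 0.53 (adjusted p = 0.111) and was no longer called. Grm3 and Grm7 stayed called in both wildtype comparisons under both corrections, as did Grm2. The median over the 6 members was 0.66, 0.64 and 0.48 in wildtype control, wildtype ECL and those labelled Synpo-/- without correction, beside 0.04, 0.02 and 0.02 over all genes tested.

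**Figure D5:**
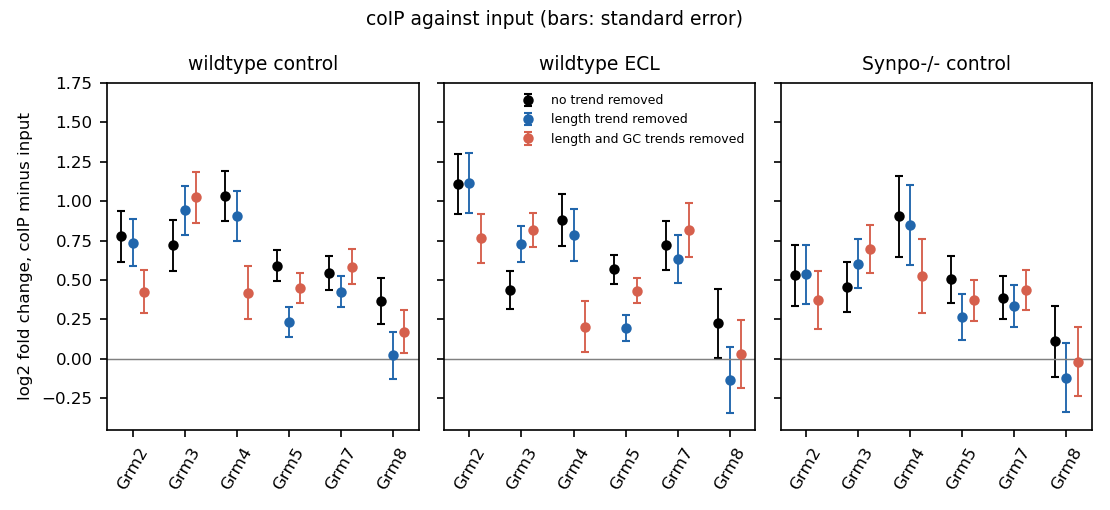
Log2 fold change of coIP against input for the 6 receptor genes without correction (black), with the trend over exonic length removed (blue) and with trends over length and GC content removed (red), bars 1 standard error. Grm8 falls to about 0 once length is removed, Grm4 falls once GC content is removed as well, and Grm3 rises under both.

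The signalling genes around the receptors were compared between coIP and input in the same way. In wildtype control 20 of 33 pathway genes were higher in coIP and 6 lower, in wildtype ECL 19 and 6, and in those labelled Synpo-/- 10 and 3. Over all genes tested, 29.6%, 30.5% and 15% were higher and 25.5%, 27.8% and 16.4% lower. In the Gq arm, 7 of 10 were higher and 1 lower in wildtype control, led by Itpr1 (0.84), Plcb1 (0.70) and the diacylglycerol lipase Dagla (1.201); 7 and 2 in wildtype ECL, led by Itpr1 (0.90), Plcb1 (0.73) and Dagla (1.32); and 4 and 1 in those labelled Synpo-/-, namely Dagla (1.00), Ncdn (0.59), Plcb1 (0.49), Itpr1 (0.46) and, lower, Gnaq (-0.50). In the Gi/o arm, 6 of 12 were higher and 3 lower in wildtype control, with Adcy1 (1.12), Rgs4 (-0.89) and Kcnj3 (0.53) having the smallest p; 5 and 3 in wildtype ECL, with Adcy1 (1.14), Rgs4 (-1.04) and Adcy8 (1.084); and 4 and 2 in those labelled Synpo-/-, with Rgs4 (-0.90), Adcy8 (1.078) and Gnai3 (-0.55). Of the partners and effectors, 7 of 11 were higher and 2 lower in wildtype control, led by Map1b (0.64), the adhesion protein gene Elfn2 (1.31) and the scaffold Grip1 (0.58); 7 and 1 in wildtype ECL, led by Elfn2 (1.46), Grip1 (0.66) and Map1b (0.66); and Elfn2 (0.73) and Grip1 (0.48) were higher in those labelled Synpo-/-. Among cell type markers, 3 of 6 for microglia were lower in coIP in wildtype control, 5 of 6 in wildtype ECL and 4 of 6 in those labelled Synpo-/-, with summed levels of 299.5 to 554.5 CPM in coIP and 427 to 764 CPM in input of wildtype controls; 3, 2 and 1 of 6 astrocyte markers were higher. Of the neuron markers, 2 of 4 were lower in coIP in each of the 3 comparisons, and their summed level was 3676 to 5031 CPM in coIP and 7010 to 8731 CPM in input of wildtype controls, without overlap. Of the interneuron markers 3, 3 and 1 of 6 were lower and 1, 0 and 1 higher, and no marker of these lists was at 0 in any group. Their part in the receptor results was not tested.

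For each member the 3 genes with the most similar profile over the 39 regional libraries were taken, by Pearson's r of log2(CPM + 0.5) among 11504 genes with a mean of at least 5 CPM. The 39 libraries form a DG and a CA3 set, so these values describe that split together with all other differences between libraries. Grm2 was closest to Glp2r (r = 0.98), Cntn4 (0.96) and Fat4 (0.96), and Grm8 to Cntn4 (0.96), Glp2r (0.95) and Ttn (0.95), so that both shared Glp2r and Cntn4. Grm5 was closest to Unc80 (0.90), Marchf1 (0.89) and Ppp1r14c (0.86), and Grm7 to Gdap1 (0.71), Marchf1 (0.71) and Scn2a (0.69). The nearest genes of Grm3 were Cthrc1 (0.69), Sesn1 (0.69) and Camk2g (0.69), and those of Grm4 were Znrf1 (0.58), Shisal1 (0.56) and Lmln (0.55), the lowest of the 6.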

How the data were processed

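RNA was sequenced on a NovaSeq as paired ends from low-input libraries. The authors deposited 1 table of raw counts per library, made without strand over GENCODE M25 exons on GRCm38 (mm10) by trimming, alignment and counting. The submitters' processing notes list cutadapt 3.5, STAR 2.7.8a and featureCounts 2.0.1 for 59 libraries, and the same tools without versions, with DESeq2, for the 4 coIP and input libraries labelled Synpo-/-. Groups were taken from the labels. Counts were tested with edgeR's quasi-likelihood test (edgeR 4.0.16, R 4.3.3) with TMM scaling and filterByExpr, on the groups compared only, with Benjamini-Hochberg adjustment over the genes tested and a threshold of 0.05; the script was tested on simulated data. Interactions were tested in the same way on all groups they concern. Precision depends on depth, which was 11601154 to 53682143 counts; at the low levels of Grm2 and Grm8 in CA3, values rested on as few as 8 counts. Replicate libraries differed by more than sampling noise (smallest chi-square per degree of freedom 7.49).

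Alternatives were DESeq2 1.42.0, its size factors, no filter on low counts, a minimum mean normalised count of 300, removal of trends over exonic length and GC content, a replicate block and leaving out single libraries; the block by biological replicate number in the coIP labelled Synpo-/- was added after seeing the data. Replicate numbers were taken to pair coIP with input in wildtype control (r of deviations 0.189 to 0.442 over 5 pairs) and ECL (0.105 to 0.381). The main fits did not use this pairing, which entered only with the replicate block. In every other comparison the lowest r was at most 0.0456, although single pairs reached 0.54 (areas in controls labelled Synpo-/-). The r of 0.0456 was that of coIP and input labelled Synpo-/-, numbered by preparation, with 2 of 2 pairs best with their own number. The genes named are the 6 members, Synpo, for each member the 3 genes with the highest r, and of each pathway list all genes called, or the 3 with the smallest p where more than 5 were called; some pathway genes are not reported here. Tamalin is listed as Grasp. The members and gene lists were chosen with earlier results of these data known.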

Additional observations from a re-analysis of the deposited data

Results flagged for a closer look

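In groups of 4 to 10 libraries, 12 of 60 combinations of group and receptor gene held a library whose gap to its nearest neighbour was large for the group's range (Dixon's criterion, which chance meets in about 1 of 20). Wildtype DG ECL replicate 5, the library with CA3-like marker levels, accounted for 3 of them: Grm2 at 1.06 CPM (other libraries 7.12 to 11.3), Grm8 at 0.691 CPM (4.54 to 6.62) and Grm7 at 65.2 CPM (50.1 to 56.3).

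Wildtype coIP ECL replicate 4 stood above its group for Grm2 (15.8 CPM, others 9.17 to 10.8) and Grm7 (111.0 CPM, others 60.7 to 74.9), and replicate 3 of the same group for Grm5 (399.7 CPM, others 323.8 to 338.9). Wildtype coIP control replicate 1 was high for Grm4 (13.1 CPM, others 9.67 to 10.2) and wildtype DG control replicate 1 for Grm8 (14.1 CPM, others 6.48 to 6.91). Among libraries labelled Synpo-/-, Grm3 was high in CA3 control replicate 3 (14.96 CPM, others 9.53 to 11.5), in DG control replicate 2 (18.4 CPM, others 10.96 to 14.1) and in DG ECL replicate 3 (16.05 CPM, others 13.8 to 13.95), and Grm4 in CA3 ECL replicate 1 (3.23 CPM, others 1.19 to 1.89). None of the 5 interactions tested (genotype by lesion in CA3 and in DG, genotype by area in controls, genotype by fraction and lesion by fraction) passed the threshold for any of the 6 genes by edgeR.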

How the results depend on the processing

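Of 456 values of single genes under the alternatives, 453 kept the direction of the main value, and calls were kept in 377, lost in 74 and gained in 2. The 3 reversed values were those of Grm8 in coIP against input, which was not called in those comparisons: -0.14 in wildtype ECL and -0.12 in cultures labelled Synpo-/- with the length trend removed, and -0.019 in the latter with length and GC trends removed. Of 23 counts of members, 12 stayed within 1.5 times under every alternative. A minimum mean normalised count of 300 removed Grm2 and Grm8 in regional libraries by its construction and left 0 members called in each of the 4 comparisons of area, 1 after ECL in DG labelled Synpo-/-, 0 after ECL in input, and 3 in each wildtype coIP comparison. With the length trend removed, with or without the GC trend, 4 members were called between areas in controls labelled Synpo-/-, Grm3 and Grm5 joining Grm2 and Grm8. Over all genes, 5621 of 21408 were called there with the length trend removed and 5849 with both removed. With the length trend removed 1 (Grm7) was called after ECL in wildtype DG, against 2321 of 23720 genes. Without the filter on low counts, 1 member was called after ECL in DG labelled Synpo-/- and 2 in the coIP labelled Synpo-/-. With a replicate block, 0 were called after ECL in DG labelled Synpo-/- and 0 in input, groups whose numbers do not pair, and a block by biological replicate number, chosen after seeing the data, left 2 in the coIP labelled Synpo-/-. In the wildtype coIP comparisons, where the numbers were taken to pair but the main fits were unpaired, the block changed no member's call. The list corrected for recovery from cultures labelled Synpo-/- held 1 member with wildtype ECL samples and 6 with any positive remainder. Leaving out 1 library at a time gave 0 to 2 members between areas in wildtype ECL, 0 to 2 after ECL in DG labelled Synpo-/-, 1 to 3 in the coIP labelled Synpo-/- and 0 to 1 after ECL in input; where 1 library of a fraction remained, it was assumed to vary like the others. The causes were not tested.

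Counts over all genes moved more. The number called was 492 between areas in wildtype ECL against 1360 with DESeq2 and 4999 with a replicate block, 397 after ECL in wildtype CA3 against 1387 with DESeq2 and 96 with the length trend removed (0 to 669 with 1 library left out), and 1 for genotype in CA3 control against 758 with DESeq2 and 2232 with the block. After ECL in DG labelled Synpo-/- it was 1989 against 662 with the block, in coIP 58 against 346 with DESeq2, and for genotype by fraction 0 against 64 with DESeq2 and 61 with the block. After ECL in wildtype DG the split was 1864 higher and 1022 lower, and 845 and 1476 with the length trend removed. Depth limits Grm2 and Grm8 in CA3, and 6 of the 14 groups hold only 2 to 4 libraries.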
